A study of Mus musculus with 28 samples.

Results

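The serum and glucocorticoid regulated kinases, encoded by Sgk1, Sgk2 and Sgk3, were examined together with Ndrg1 and Nedd4l, whose products these kinases phosphorylate, in the dorsal hippocampus of male C57Bl6 mice. The genes were picked by symbol, and all 5 were found among the 50686 genes of the count matrix and passed the filter on low counts that left 16735 genes for testing. The study asked how the hippocampal transcriptome responds to auditory fear conditioning, in which a tone is paired with an aversive stimulus, combined with ligands of the glucocorticoid receptor. There were 28 libraries in 6 groups. Conditioned mice were treated with Cort (n = 5), with RU486 (n = 5), with C108 (n = 5), with C118 (n = 5) or with vehicle (Vehicle, n = 4), and Basal mice (n = 4) were neither conditioned nor treated, so that conditioning and vehicle treatment cannot be told apart in the comparison of Vehicle with Basal. The label Cort is read here as corticosterone, the glucocorticoid that the mouse adrenal secretes. RU486 (mifepristone) blocks the receptors for glucocorticoids and for progesterone, and C108 and C118 are known here by code name only. The sources used here do not give doses, the time between conditioning and dissection, or the age of the mice. The labels do not say whether each library came from a separate mouse, so p-values measure the spread between these libraries.

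The kinases belong to the AGC family of serine/threonine kinases and are activated downstream of phosphatidylinositol 3-kinase, by phosphorylation through the kinase PDK1 and the mTOR complex that contains Rictor. Sgk1 is unusual among kinases in that it is regulated mainly through its transcription, which glucocorticoids and mineralocorticoids raise through their receptors, and in rat hippocampus its product has been linked to spatial learning. Once active, the kinases phosphorylate the ubiquitin ligase encoded by Nedd4l, which lets ion channels and transporters remain at the cell surface, and Ndrg1 protein, whose phosphorylation is commonly used as a readout of their activity.

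Sgk1 lies at chr10:21882184-21999903 on the plus strand of GRCm38 (GENCODE M21). RefSeq start sites for Sgk1 gave 6 promoter windows on GRCm38.p6, and 2 of them are shown because the first holds the full palindromic glucocorticoid response element and the other precedes the most downstream start site of the gene. Each is the 250 bases before the start site on the plus strand. In the first the capitals mark the response element, and in the other they mark the letters TATAAA of the TATA box motif. That match starts 11 bases before the start site, and whether it acts as a TATA box was not tested.
Sgk1, chr10:21993640-21993889: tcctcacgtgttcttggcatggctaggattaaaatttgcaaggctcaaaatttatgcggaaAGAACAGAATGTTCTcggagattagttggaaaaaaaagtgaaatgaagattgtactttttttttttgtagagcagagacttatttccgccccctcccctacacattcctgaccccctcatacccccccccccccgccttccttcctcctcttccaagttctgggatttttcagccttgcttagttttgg
Sgk1, chr10:21994416-21994665: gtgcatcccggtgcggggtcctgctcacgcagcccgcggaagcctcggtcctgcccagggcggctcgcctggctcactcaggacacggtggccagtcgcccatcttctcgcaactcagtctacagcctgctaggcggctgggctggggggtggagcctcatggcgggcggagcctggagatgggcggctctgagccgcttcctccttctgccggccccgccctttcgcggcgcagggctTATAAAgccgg
The response element matched the motif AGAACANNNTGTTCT, which reads the same on both strands, at chr10:21993701-21993715. It lay 189 bases before the start site at 21993890 and 965 bases before the one at 21994666. The same motif, searched in all RefSeq promoter windows available here, was present in 3 of 32851 windows (0.00913%) and in 3 of 27025 genes, namely Sgk1, Acnat2 and Gm35041. These windows included none for Sgk2, Sgk3, Ndrg1 or Nedd4l, so the promoters of those members were not searched. A looser form of the element, GNACANNNTGTNC, was present in 127 windows (0.387%), and TATAAA in 4063 windows (12.4%). The cAMP response element TGACGTCA, present in 508 windows (1.55%), had no match in the windows of Sgk1. These are matches of letters, and binding was not measured.

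The libraries held between 16244993 and 20295147 counts on genes, with no group set apart from the others. Levels are given as CPM, a library's count of a gene for every 1e+06 of its gene counts after TMM scaling. Differences are log2 fold changes with their standard error (SE), tested by edgeR's quasi-likelihood test with Benjamini-Hochberg adjustment over the 16735 genes, and a gene passed where the adjusted p was under 0.05. The comparisons with Basal share the same 4 Basal libraries, and the comparisons with Vehicle share the same 4 Vehicle libraries. In bulk tissue, fewer cells of a type and less RNA per cell cannot be told apart. Dentate gyrus, CA1 and CA3 markers were all detected in each group, with summed levels of 448 to 885, 336 to 877 and 206 to 304 CPM per library, and Vehicle held the lowest dentate gyrus and CA1 sums. Libraries also differed in marker scores, each the mean of the markers' log2 CPM centred on its mean over the 28 libraries. Vehicle 29 had -0.73 for dentate gyrus and -0.49 for CA3, and Vehicle 16 had -0.65 for CA1 and 1.97 for thalamus, which is why both were also left out together. Thalamus scores were also high in Vehicle 3 (1.02) and in Cort 4, 11 and 30 (0.97, 0.80 and 0.76). Of 8 genes known to respond to glucocorticoids (Fkbp5, Per1, Zbtb16, Cdkn1a, Sult1a1, Errfi1, Hif3a and Plin4), 7 were higher in Vehicle than in Basal, where 4.11% of all genes passed in either direction. This list was chosen with earlier results of these data known, so its count and sums are a description. The summed level of the 8 genes was 462 to 557 CPM in Cort libraries, 332 to 359 CPM in RU486 libraries, 355 to 433 CPM with C108, 359 to 432 CPM with C118, 395 to 451 CPM in Vehicle and 215 to 288 CPM in Basal.

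Sgk1 and Sgk3 were higher after conditioning with vehicle, each at about 2-fold the level of Basal, and no member passed as lower. In the comparison of Vehicle with Basal, 2 of the 5 members passed, against 4.11% of all genes tested. The members were chosen with earlier results of these data known, so the shares of them that passed, here and below, are a description. Sgk1 also passed in each of the 4 ligand groups against Basal, Sgk3 in Cort and RU486, and Nedd4l in Cort and C108. Thus 3 of 5 members passed in Cort against Basal, where 6.27% of all genes did, 2 in RU486 (5.45% of all genes), 2 in C108 (6.04%) and 1 in C118 (3.87%), in each case as higher in the conditioned group. None of the 5 members passed between any ligand and Vehicle or between any pair of ligands.

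Per kilobase of annotated exon, Sgk1 was the most abundant of the kinases. Its mean over the 28 libraries was 27.9 CPM per kb, against 0.662 CPM per kb for Sgk2 and 1.09 CPM per kb for Sgk3, so that Sgk1 made up 94.1% of the summed level of the 3 kinases per kb. Sgk3 has 14.31 kb of annotated exon, and its level per kb depends on that length. Ndrg1 and Nedd4l stood at 14.4 and 14.5 CPM per kb. Among all genes tested, Sgk1 was at percentile 89.5 of the level per kb, Ndrg1 and Nedd4l both at 79, Sgk3 at 25.5 and Sgk2 at 19.

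Sgk1, the steroid-induced kinase, was high in every conditioned group. Its level was 191, 128, 133, 158 and 148 CPM in Cort libraries 4, 11, 17, 30 and 36, and 161, 132, 136, 114 and 179 CPM in RU486 libraries 6, 12, 19, 25 and 32. In C108 libraries 8, 21, 26, 34 and 39 it was 139, 191, 105, 101 and 131 CPM, and in C118 libraries 7, 13, 20, 33 and 38 it was 168, 130, 153, 150 and 153 CPM. Vehicle libraries 3, 16, 23 and 29 had 198, 161, 130 and 143 CPM, and Basal libraries 1, 9, 14 and 27 had 55.5, 130, 58.3 and 49.6 CPM. Basal 9 reached the range of the conditioned mice, while the other 3 Basal libraries lay below every one of the 24 conditioned libraries, of which the lowest had 101 CPM.

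Sgk1 rose in all 5 conditioned groups against Basal. It averaged 158 ± 29.6 CPM in Vehicle (SD, n = 4) and 73.4 ± 38 CPM in Basal (SD, n = 4), which gave 1.11 ± 0.24 as log2 fold change with its SE (edgeR adjusted p = 0.00615), or 2.15-fold. Against the same Basal libraries the log2 fold change was 1.05 ± 0.23 in Cort (adjusted p = 0.00421), 0.98 ± 0.23 in RU486 (adjusted p = 0.0121), 0.86 ± 0.22 in C108 (adjusted p = 0.0234) and 1.04 ± 0.23 in C118 (adjusted p = 0.00894). The C118 libraries all lay above Basal, the lowest of them just above Basal 9, as for 4.26% of all genes, and each of the other conditioned groups overlapped with Basal through Basal 9. From high to low the groups ran Vehicle, Cort, C118, RU486, C108 and Basal, and of the neighbours in that order C108 and Basal alone differed beyond the test's threshold. Without Basal 9 the log2 fold change grew to 1.53 in Vehicle, 1.48 in Cort, 1.41 in RU486, 1.29 in C108 and 1.47 in C118. The calls of Vehicle and Cort held on leaving out each library in turn; that of RU486 was lost without Basal 1, Basal 14 or Basal 27 (highest adjusted p 0.0656), that of C118 without Basal 1 or Basal 14 (highest 0.0568), that of C108 without Basal 1, Basal 14, Basal 27 or C108 21 (highest 0.111), without Cort 36, C108 39 and C118 38 together (0.0618) or with no filter on low counts (0.0661), and with the spread taken from only the 2 groups compared all 5 were lost (adjusted p 0.0581 to 0.156). With scores of thalamus and neocortex markers in the model the log2 fold changes stayed near these values while their SE grew, at 0.95 ± 0.32 in Cort, 0.93 ± 0.31 in RU486, 0.87 ± 0.27 in C108 and 1.02 ± 0.31 in C118, so that the 4 ligand calls were lost (adjusted p 0.142 to 0.201) and that of Vehicle was kept (1.02 ± 0.27, adjusted p = 0.0245).

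**Figure D1:**
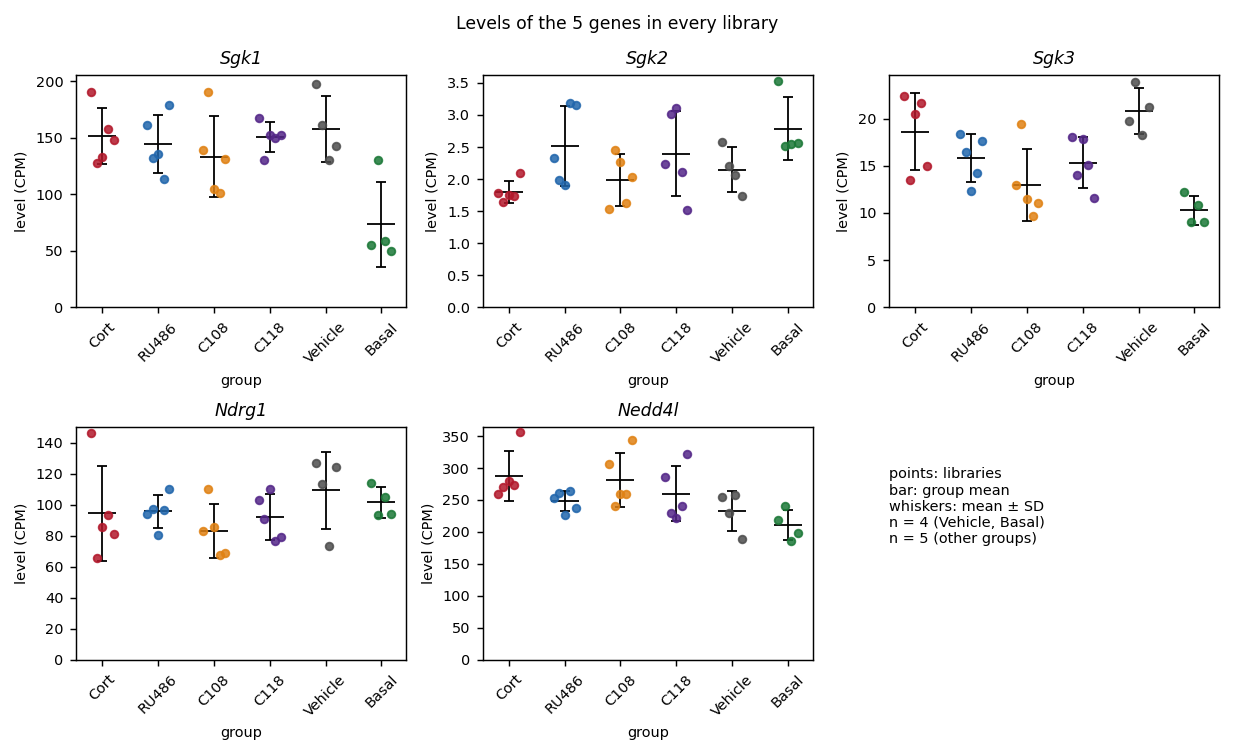
Level of each member in CPM (linear axis from 0) in each of the 28 libraries, by group, with the group mean and SD. Of the 4 Basal libraries, 3 lie between 49.6 and 58.3 CPM for Sgk1 and Basal 9 at 130 CPM, while for Sgk3 the 4 Vehicle libraries, at 18.2 to 23.9 CPM, lie above all 4 Basal libraries, at 8.99 to 12.2 CPM.

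The level of Sgk1 followed the other glucocorticoid-responsive genes from library to library. Its log2 CPM had a Pearson correlation of 0.87 with the mean score of the 8 genes over the 28 libraries and of 0.88 after each group was centred on its mean. These values are a description over libraries that share their depth scaling with the score. Between Cort and RU486 the list and Sgk1 parted. There 3 of the 8 genes passed as higher in Cort, where 0.0538% of all genes passed with edgeR. The mean score was 0.55 in Cort and -0.14 in RU486. Sgk1 had a log2 fold change of 0.07 in that comparison (edgeR adjusted p = 0.988). Basal 9 had a score of -0.63, against -1.26, -1.27 and -1.47 in the other Basal libraries, so that the Basal library with high Sgk1 also had the highest score of its group. What part this has in the level of Sgk1 in Basal 9 was not tested. The genes whose pattern over the 28 libraries was most like that of Sgk1, among 14584 genes compared, were Plekhf1 and Gm19439 (both r = 0.93), Arl4d, Arrdc2 and Polr3e (each r = 0.90).

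None of the ligands moved Sgk1 from its level in Vehicle by more than the spread between libraries. Sgk1 averaged 152 ± 24.8 CPM in Cort, 144 ± 25.3 CPM in RU486, 133 ± 36.2 CPM in C108 and 151 ± 13.6 CPM in C118 (SD, n = 5 each). The log2 fold change against Vehicle was -0.06 in Cort (95% interval -0.51 to 0.40, edgeR adjusted p = 0.945) and -0.13 in RU486 (-0.58 to 0.33, adjusted p = 0.922). It was -0.24 in C108 (-0.70 to 0.21, adjusted p = 0.559) and -0.06 in C118 (-0.52 to 0.39, adjusted p = 0.958). These intervals do not show that the groups are equal, and a change of the size seen against Basal lies outside each of them.

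Sgk3 (chr1:9798107-9900845, plus strand), which encodes the kinase with a phosphoinositide-binding PX domain that directs it to endosomes, was higher in Vehicle, Cort and RU486 than in Basal. The 5 Cort libraries, in the order given for Sgk1, had 22.4, 13.5, 20.5, 21.6 and 15 CPM, and the 5 RU486 libraries had 18.4, 16.5, 12.3, 14.2 and 17.6 CPM. The C108 libraries had 13, 19.4, 11.5, 9.64 and 11.1 CPM, and the C118 libraries had 18, 14, 17.8, 15.1 and 11.6 CPM. The Vehicle libraries had 19.7, 23.9, 18.2 and 21.2 CPM, and the Basal libraries had 12.2, 8.99, 10.8 and 9.07 CPM. All Vehicle, Cort and RU486 libraries lay above all Basal libraries, while 4 C108 or C118 libraries did not exceed the highest Basal library.

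Sgk3 averaged 20.8 ± 2.4 CPM in Vehicle (SD, n = 4) and 10.3 ± 1.55 CPM in Basal (SD, n = 4), which gave a log2 fold change of 1.01 ± 0.19 (edgeR adjusted p = 0.0014). In Vehicle against Basal, 4.39% of all genes had every Vehicle library above every Basal library. Against Basal, Sgk3 passed in Cort (0.86 ± 0.18, adjusted p = 0.00291), where 4.68% of all genes did not overlap in that direction, and in RU486 (0.62 ± 0.18, adjusted p = 0.042), where 4.73% did not. It did not pass in C118 (0.58 ± 0.18, adjusted p = 0.0682) or in C108 (0.33 ± 0.18, adjusted p = 0.287). The groups ran, from high to low, Vehicle, Cort, RU486, C118, C108 and Basal, and no neighbours in that order differed beyond the threshold. The calls of Vehicle and Cort held on leaving out each library, but that of RU486 was lost without any one of the 4 Basal libraries or RU486 6, 12 or 32 (highest adjusted p 0.11), with no filter on low counts (0.0926) and, at a larger fold and SE, with thalamus and neocortex scores in the model (0.81 ± 0.24, adjusted p = 0.122). C118 against Basal passed without C118 38 (adjusted p = 0.0483) and with DESeq2 (adjusted p = 0.0323).

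The widest gap of any member between a ligand and Vehicle was that of Sgk3 in C108. Sgk3 averaged 12.9 ± 3.8 CPM in C108 (SD, n = 5) and 20.8 ± 2.4 CPM in Vehicle (SD, n = 4), a log2 fold change of -0.68 ± 0.17 (95% interval -1.05 to -0.32) that missed the threshold (edgeR adjusted p = 0.0737). C108 21, at 19.4 CPM, lay within the Vehicle range and the other 4 C108 libraries below it. In C118 the log2 fold change was -0.44 ± 0.17 (adjusted p = 0.496), with every C118 library below every Vehicle library, as for 0.735% of all genes. In RU486 it was -0.40 ± 0.17 (adjusted p = 0.533) and in Cort -0.16 (adjusted p = 0.741). The gap in C108 passed with DESeq2 (adjusted p = 0.0166), without Vehicle 23 (adjusted p = 0.026) or without C108 21 (-0.88, adjusted p = 0.0348), and had an adjusted p of 0.841 without Vehicle 16 and Vehicle 29 together.

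Oligodendrocyte markers moved with Sgk3 within groups, as did several other marker lists. The correlation of Sgk3 with the score of 15 oligodendrocyte markers was 0.18 over the 28 libraries and 0.76 after centring each group on its mean. The summed level of these markers was 4750 to 8480 CPM in Cort libraries, 5930 to 8460 CPM in RU486 libraries, 4360 to 8520 CPM with C108, 4900 to 8220 CPM with C118, 5520 to 8230 CPM in Vehicle and 6380 to 8800 CPM in Basal, and none of the markers was at 0 in any group. Against Basal, 0 of the 15 were higher in any conditioned group. In Cort 6 were lower, where 6.27% of all genes passed in either direction, and in RU486 1 was (5.45% of all genes). In C108 3 were lower (6.04% of all genes), in C118 2 (3.87%) and in Vehicle 2 (4.11%). With the oligodendrocyte score as a covariate the log2 fold change of Sgk3 against Basal was 0.74 in C108 (adjusted p = 0.00827) and 0.79 in C118 (adjusted p = 0.00072). This adjustment assumes that the score is not itself moved by conditioning, while its mean was 0.32 in Basal, -0.22 in C108 and 0.05 in C118. Thalamus and neocortex scores as covariates gave 0.47 ± 0.21 in C108 (edgeR adjusted p = 0.338) and 0.77 ± 0.23 in C118 (adjusted p = 0.196), and neither passed. Within groups Sgk3 also correlated at 0.69 with the oligodendrocyte precursor score, 0.55 with endothelial, 0.54 with choroid plexus and ependyma and 0.48 with astrocyte. With the neuron score it correlated at -0.54. Over the 28 libraries its highest correlation with any list was 0.70, with the glucocorticoid-responsive score. The genes most like Sgk3 in pattern were Rab31, Phactr4 and Stxbp3 (each r = 0.83), Rhoj (r = 0.82) and Mat2a (r = 0.81).

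**Figure D2:**
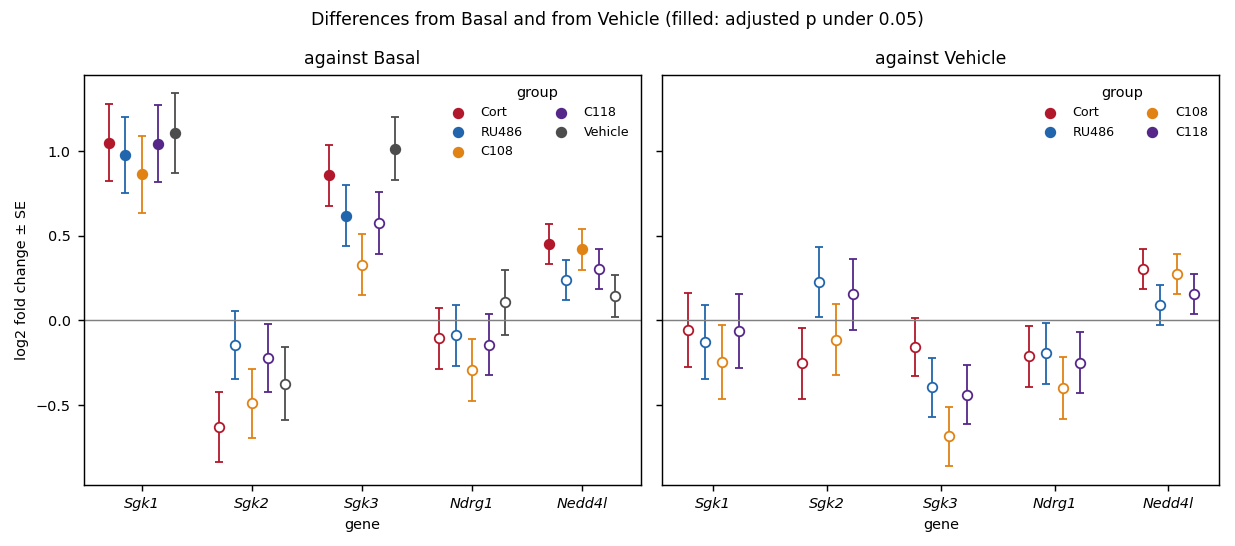
Log2 fold change with its SE for each member in the conditioned groups against Basal (left) and in the ligand groups against Vehicle (right), where filled points passed at an adjusted p under 0.05. Sgk1 stands between 0.86 and 1.11 against Basal in all 5 conditioned groups, and no point against Vehicle is filled, the farthest from 0 being Sgk3 in C108 at -0.68.

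Sgk2 (chr2:162987330-163014127, plus strand), the kinase best known from epithelial tissues such as liver and kidney, was expressed at a low level. Its counts were 31 to 41 in Cort libraries, 36 to 63 in RU486 libraries, 28 to 45 with C108, 30 to 59 with C118, 34 to 50 in Vehicle and 46 to 69 in Basal. In CPM its lowest, median and highest libraries were 1.64, 1.75 and 2.10 in Cort, and 2.52, 2.55 and 3.53 in Basal. No conditioned library exceeded all Basal libraries, and 19 of the 24 lay below all of them, including all 5 Cort and all 5 C108 libraries. In Cort against Basal 5.35% of all genes lay entirely below Basal in this way, and in C108 against Basal 4.94%.

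Sgk2 averaged 1.80 ± 0.174 CPM in Cort (SD, n = 5) and 2.79 ± 0.497 CPM in Basal (SD, n = 4), a log2 fold change of -0.63 ± 0.21 that did not pass (edgeR adjusted p = 0.0652). It was -0.49 ± 0.20 in C108 (adjusted p = 0.156), -0.37 ± 0.22 in Vehicle (adjusted p = 0.381), -0.22 in C118 (adjusted p = 0.611) and -0.15 in RU486 (adjusted p = 0.73). Against Vehicle the log2 fold change of Sgk2 was -0.25 in Cort (adjusted p = 0.652), 0.23 in RU486 (adjusted p = 0.833), -0.11 in C108 (adjusted p = 0.791) and 0.15 in C118 (adjusted p = 0.88). From high to low the groups ran Basal, RU486, C118, Vehicle, C108 and Cort, with no neighbours that differed beyond the threshold. The oligodendrocyte score correlated with Sgk2 at 0.79 over the 28 libraries and at 0.67 within groups, and its mean was -0.26 in Cort and 0.32 in Basal. With the oligodendrocyte score as a covariate the log2 fold change of Sgk2 against Basal was -0.16 in Cort (adjusted p = 0.788) and -0.07 in C108 (adjusted p = 0.938). This adjustment assumes that the score is not itself moved by conditioning. Thalamus and neocortex scores as covariates gave -0.76 ± 0.29 in Cort (edgeR adjusted p = 0.232) and -0.48 ± 0.24 in C108 (adjusted p = 0.42). What part oligodendrocyte content has in the level of Sgk2 was not tested. The genes most like Sgk2 were Cnp, a myelin enzyme that is itself one of the oligodendrocyte markers, Tmem88b and Galnt6 (each r = 0.81), Nfe2l3 (r = 0.80) and Tmem63a (r = 0.79).

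Ndrg1, the phosphorylation substrate, did not pass in any comparison. Its RNA level does not report its phosphorylation. Ndrg1 had 146, 65.6, 85.8, 93.4 and 81.0 CPM in the Cort libraries, 127, 113, 73.1 and 124 CPM in the Vehicle libraries and 114, 93.0, 105 and 93.9 CPM in the Basal libraries. In RU486 it ran between 80.2 and 110 CPM, in C108 between 67.4 and 110 CPM and in C118 between 76.4 and 110 CPM, and all 6 groups overlapped. The log2 fold change in Vehicle against Basal was 0.11 ± 0.19 (edgeR adjusted p = 0.833), and in the ligands against Basal it lay between -0.29 in C108 (adjusted p = 0.35) and -0.09 in RU486 (adjusted p = 0.83). Against Vehicle it was -0.40 ± 0.18 in C108 (adjusted p = 0.258), -0.25 in C118 (adjusted p = 0.767), -0.21 in Cort (adjusted p = 0.661) and -0.19 in RU486 (adjusted p = 0.836). From high to low the groups ran Vehicle, Basal, RU486, Cort, C118 and C108, and no neighbours differed beyond the threshold.

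Ndrg1 varied with markers of the oligodendrocyte lineage and, less closely, with other marker lists. Its correlation was 0.73 with the oligodendrocyte score and 0.79 with the oligodendrocyte precursor score over the 28 libraries, and 0.78 with each within groups. Other lists correlated with Ndrg1 within groups at 0.52 (endothelial), 0.51 (choroid plexus and ependyma), 0.45 (pericyte and smooth muscle) and -0.46 (neuron). The most alike genes were Anln (r = 0.84), Nrbp2 (r = 0.83), Ddc and Pmp22 (each r = 0.82) and Litaf (r = 0.81). Antisense genes on the opposite strand, Gm17035 and Gm2895, cover 6.35% and 2.08% of the exon bases of Ndrg1 (chr15:66929318-66969640, minus strand). In Nedd4l the antisense gene A330084C13Rik covers 1.57% of exon bases. The libraries were stranded, but the sources used here do not give the strand setting of the counting.

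Nedd4l (chr18:64887705-65217828, plus strand), which encodes the ubiquitin ligase that removes channels from the membrane and that the kinases inhibit, was higher in Cort and C108 than in Basal. It had 260, 271, 279, 273 and 356 CPM in the Cort libraries, 306, 241, 259, 259 and 344 CPM in the C108 libraries and 219, 240, 185 and 199 CPM in the Basal libraries. Every Cort and every C108 library lay above every Basal library, as for 4.68% and 4.41% of all genes. The RU486 libraries lay between 227 and 264 CPM, the C118 libraries between 221 and 322 CPM and the Vehicle libraries between 189 and 258 CPM, and each of these groups overlapped with Basal.

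Nedd4l averaged 288 ± 38.5 CPM in Cort (SD, n = 5) and 211 ± 24.3 CPM in Basal (SD, n = 4), a log2 fold change of 0.45 ± 0.12 (edgeR adjusted p = 0.0182), and in C108, at 282 ± 42.2 CPM (SD, n = 5), it was 0.42 ± 0.12 (adjusted p = 0.0335). It did not pass in C118 (0.30 ± 0.12, adjusted p = 0.151), RU486 (0.24 ± 0.12, adjusted p = 0.236) or Vehicle (0.14 ± 0.12, adjusted p = 0.597) against Basal. Against Vehicle it was 0.31 ± 0.12 in Cort (adjusted p = 0.311), with every Cort library above every Vehicle library as for 1.6% of all genes, 0.28 ± 0.12 in C108 (adjusted p = 0.235), 0.16 in C118 (adjusted p = 0.769) and 0.09 in RU486 (adjusted p = 0.883). The groups ran Cort, C108, C118, RU486, Vehicle and Basal from high to low, with no neighbours that differed beyond the threshold. The call of Cort was lost without Basal 14, Basal 27 or Cort 36 (highest adjusted p 0.0979) and that of C108 without Basal 1, Basal 14, Basal 27 or C108 39 (highest 0.131). Both were also lost with the oligodendrocyte score as covariate (0.31, adjusted p = 0.253, in Cort and 0.29, adjusted p = 0.406, in C108) and with scores of thalamus and neocortex markers in the model (0.37 ± 0.17, adjusted p = 0.359, in Cort and 0.36 ± 0.14, adjusted p = 0.243, in C108).

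In Cort, C108 and C118, the library highest in Nedd4l stood apart in several marker lists. C108 8, the next highest of C108 at 306 CPM, had an endothelial score of 0.29 and a neuron score of -0.01. Cort 36, C108 39 and C118 38, each with the highest Nedd4l of its group, had microglia scores of -0.44, -0.41 and -0.47 and endothelial scores of -0.69, -1.23 and -1.20. They also had the lowest astrocyte scores of their groups (-0.32, -0.51 and -0.57), the lowest scores of mitochondrially encoded genes (-0.87, -0.84 and -0.96) and the highest neuron scores (0.22, 0.25 and 0.23). Their shares of counts in the summary rows, 13.8%, 13.4% and 12.6%, were the lowest of their groups. The correlation of Nedd4l was -0.74 with the microglia score, -0.68 with the endothelial score and 0.63 with the dentate gyrus score over the 28 libraries. Within groups it was -0.78 with microglia, -0.55 with endothelial, 0.79 with dentate gyrus and -0.73 with the astrocyte score. The mean dentate gyrus score was 0.149 in Cort and -0.215 in Vehicle, and its part in the difference of Nedd4l between them was not tested. The 9 microglia markers summed to 294 to 389 CPM in Cort libraries, 355 to 450 CPM in RU486 libraries, 305 to 439 CPM with C108, 295 to 488 CPM with C118, 378 to 419 CPM in Vehicle and 365 to 406 CPM in Basal, and none was at 0 in any group. The 9 endothelial markers, none at 0 in any group, summed to 76.7 to 166 CPM in Cort libraries, 97.8 to 164 CPM in RU486 libraries, 54.7 to 152 CPM with C108, 56.9 to 151 CPM with C118, 114 to 154 CPM in Vehicle and 147 to 197 CPM in Basal. Without these 3 libraries together, a choice made after seeing the data, Nedd4l passed against Basal in Cort (0.37 ± 0.10, edgeR adjusted p = 0.021) and in C108 (0.34 ± 0.10, adjusted p = 0.0438). Without Cort 36 alone it was 0.37 ± 0.12 in Cort (adjusted p = 0.0684), and without C108 39 alone 0.34 ± 0.12 in C108 (adjusted p = 0.111). Leaving out the highest libraries of 3 groups also narrows the spread that the test uses. The fit without all 3 therefore cannot show that the calls hold without them. The genes most like Nedd4l were Dapk1 (r = 0.91) and Atf6, Ptprj, Cblb and Mrtfa (each r = 0.90).

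**Figure D3:**
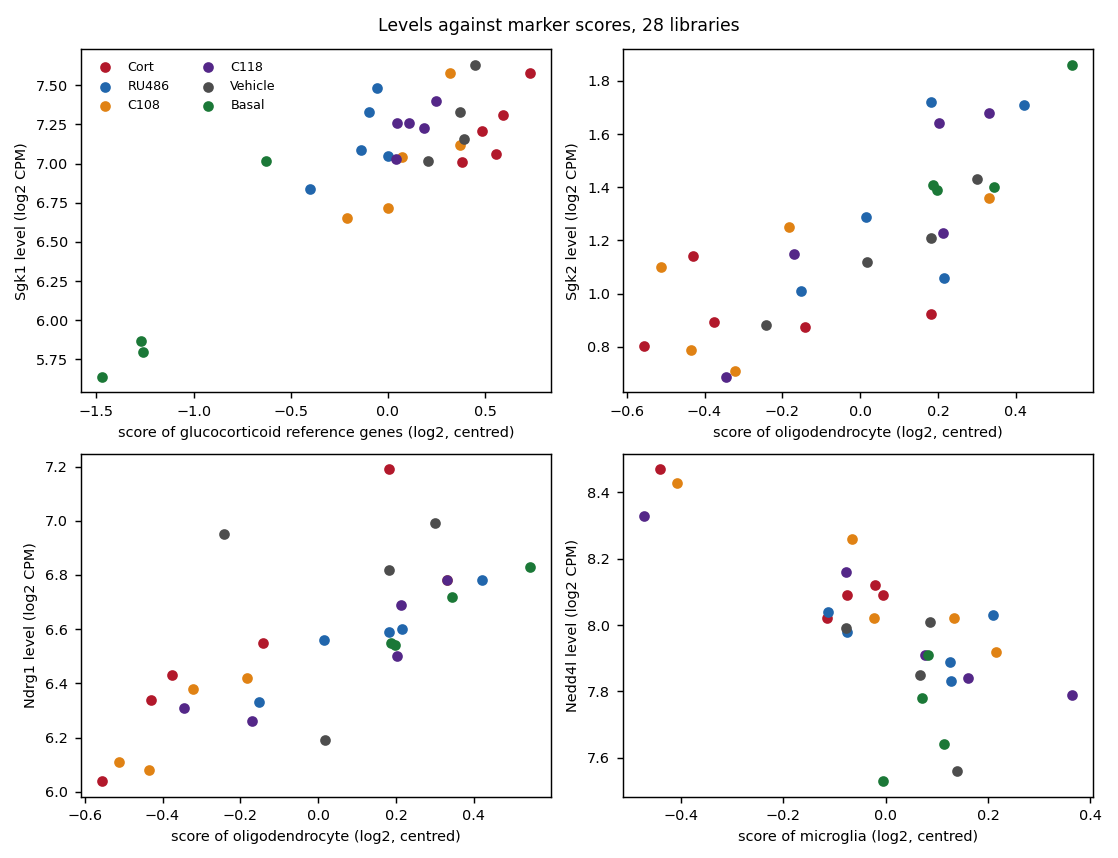
Each point is 1 of the 28 libraries: log2 CPM of Sgk1 against the glucocorticoid-responsive score, of Sgk2 and Ndrg1 against the oligodendrocyte score, and of Nedd4l against the microglia score (mean centred log2 CPM of the list), coloured by group. Sgk1, Sgk2 and Ndrg1 run upwards with their scores (r = 0.87, 0.79 and 0.73) and Nedd4l downwards (r = -0.74).

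Against Vehicle, 0 of the 20 tests of the 5 members in the 4 ligand groups passed with edgeR, 6 of them had an unadjusted p under 0.05, and 1 (Sgk3 in C108) passed with DESeq2. Of all genes tested, 0.00598% passed with edgeR in Cort against Vehicle, 0% in RU486, 0.215% in C108 and 0% in C118. The number of genes passing depended on the tool and on Vehicle 23: it was 1 in Cort, 0 in RU486, 36 in C108 and 0 in C118 with edgeR, 85, 45, 295 and 45 in the same order with DESeq2, and 180, 210, 643 and 215 with edgeR without Vehicle 23. An unadjusted p under 0.05 was seen for 1 member in Cort, where 11.6% of all genes had one, 1 in RU486 (8.16% of all genes), 3 in C108 (17.4%) and 1 in C118 (8.01%).

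The 4 ligands were compared with each other in 6 pairs, which gave 30 tests of the members with p-values adjusted over all genes within each pair. None passed with edgeR, DESeq2 or limma-voom, and 3 had an unadjusted p under 0.05 with edgeR. The 3 fell 1 each in Cort against RU486, Cort against C108 and Cort against C118, where 5.34%, 4.88% and 4.26% of all genes had an unadjusted p under 0.05; the share was 5.74% in RU486 against C108, 1.83% in RU486 against C118 and 2.4% in C108 against C118. In Cort against RU486, 0.0538% of all genes tested passed with edgeR, and in each of the other 5 pairs 0%, while DESeq2 called 29, 5 and 15 genes in Cort against RU486, C108 and C118. Sgk3 was 18.6 ± 4.06 CPM in Cort and 12.9 ± 3.8 CPM in C108 (SD, n = 5 each), a log2 fold change of 0.53 ± 0.17 (adjusted p = 0.718). Sgk2 had a log2 fold change of -0.48 ± 0.20 in Cort against RU486 (adjusted p = 0.804) and of -0.41 ± 0.20 in Cort against C118 (adjusted p = 0.999). Over the 6 pairs the log2 fold changes lay between -0.18 and 0.19 for Sgk1, between -0.15 and 0.21 for Ndrg1 and between -0.18 and 0.21 for Nedd4l. The 95% intervals of these differences reached 0.62 for Sgk1, 0.89 for Sgk2, 0.87 for Sgk3, 0.56 for Ndrg1 and 0.44 for Nedd4l at the farthest from 0, so that differences between ligands up to those sizes are within the data. Whether the doses and times of the ligands were matched is not known here.

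The genes around the kinases were read from 8 lists of 78 genes: upstream activation, steroid receptors and metabolism, other AGC kinases, the other NDRG genes, other substrates, the NEDD4 family with its adaptors, turnover of the kinases, and channels and transporters that they regulate. Of these, 72 were tested, and the others fell under the filter on low counts. In Vehicle against Basal 3 of the 72 were higher and 5 were lower, 11.1% in all beside 4.11% of all genes tested, and the median log2 fold change was -0.03, beside 0.0027 over all genes tested. The lists were chosen with earlier results of these data known. An excess over all genes, here or in the ligand groups, is a description and no test of the pathway.

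The steroid receptors fell and a classic glucocorticoid target rose. Tsc22d3, which encodes the glucocorticoid-induced leucine zipper protein GILZ, averaged 121 ± 19.1 CPM in Vehicle and 45.7 ± 11.9 CPM in Basal (SD, n = 4 each), a log2 fold change of 1.41 ± 0.17 (edgeR adjusted p = 1.29e-05). Nr3c1, the glucocorticoid receptor, had 78.4 to 87 CPM in Vehicle and 96.7 to 129 CPM in Basal (-0.51 ± 0.09, adjusted p = 0.00135). Nr3c2, the mineralocorticoid receptor, averaged 261 ± 76.8 CPM in Vehicle and 369 ± 11.2 CPM in Basal (-0.50 ± 0.14, adjusted p = 0.0379), and without Vehicle 16 and Vehicle 29 the difference was -0.17 (adjusted p = 0.631). The steroid list thus had 2 of 3 tested genes lower, the third being Hsd11b1, which regenerates active glucocorticoid, with 40.2 CPM in Vehicle and 40.9 CPM in Basal (-0.03, adjusted p = 0.957).

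Among genes of activation and signalling, Prr5, a subunit of the mTOR complex that contains Rictor, averaged 6.61 ± 0.553 CPM in Vehicle and 4.10 ± 1.31 CPM in Basal (0.69 ± 0.19, edgeR adjusted p = 0.0337). Mapk7, a kinase that phosphorylates SGK1, was lower (-0.36 ± 0.10, adjusted p = 0.0352), which left the upstream list at 1 higher and 1 lower of 14. Pdpk1, which encodes the activating kinase PDK1, had 215 CPM in Vehicle and 215 CPM in Basal (adjusted p = 0.995), and Rictor had 65.4 CPM in Vehicle and 60.5 CPM in Basal (0.11, adjusted p = 0.612). Of 8 other AGC kinases, Akt2 was lower, with 55.8 ± 7 CPM in Vehicle and 70.6 ± 1.55 CPM in Basal (-0.34 ± 0.09, adjusted p = 0.0283), and none was higher.

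Of 10 other substrates, Foxo3, a forkhead transcription factor that SGK1 keeps out of the nucleus, was higher, with 94.5 ± 7.32 CPM in Vehicle and 77.8 ± 7.71 CPM in Basal (0.28 ± 0.08, edgeR adjusted p = 0.0344), while its relative Foxo1 was at -0.11 (adjusted p = 0.644). In the NEDD4 list Usp2, a deubiquitinase that counteracts the ligase at the sodium channel, was lower, with 52.7 ± 8.21 CPM in Vehicle and 69.3 ± 9.74 CPM in Basal (-0.40 ± 0.10, adjusted p = 0.0219), as 1 of 10, and the adaptor Ndfip1 had a log2 fold change of 0.06 (adjusted p = 0.741). Tsc22d3 was listed with turnover, where it was the 1 gene of 8 that passed. None of the 3 NDRG genes passed, Ndrg2 being at 0.23 (adjusted p = 0.603), and none of the 16 channels and transporters did. The calls of Nr3c1 and Tsc22d3 held on leaving out each of the 8 libraries in turn. Those of the other 6 were each lost in 4 to 6 of the 8 fits: Akt2 without Basal 1, 14 or 27 or Vehicle 3 or 29; Foxo3 without Basal 1, 14 or 27 or Vehicle 3, 16 or 23; Mapk7 without Basal 1 or 14 or Vehicle 16, 23 or 29; Nr3c2 without any one Basal library or Vehicle 16 or 29; Prr5 without Basal 1, 14 or 27 or Vehicle 16, 23 or 29; and Usp2 without Basal 1, 14 or 27 or Vehicle 29 (highest adjusted p 0.119 to 0.167).

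**Figure D4:**
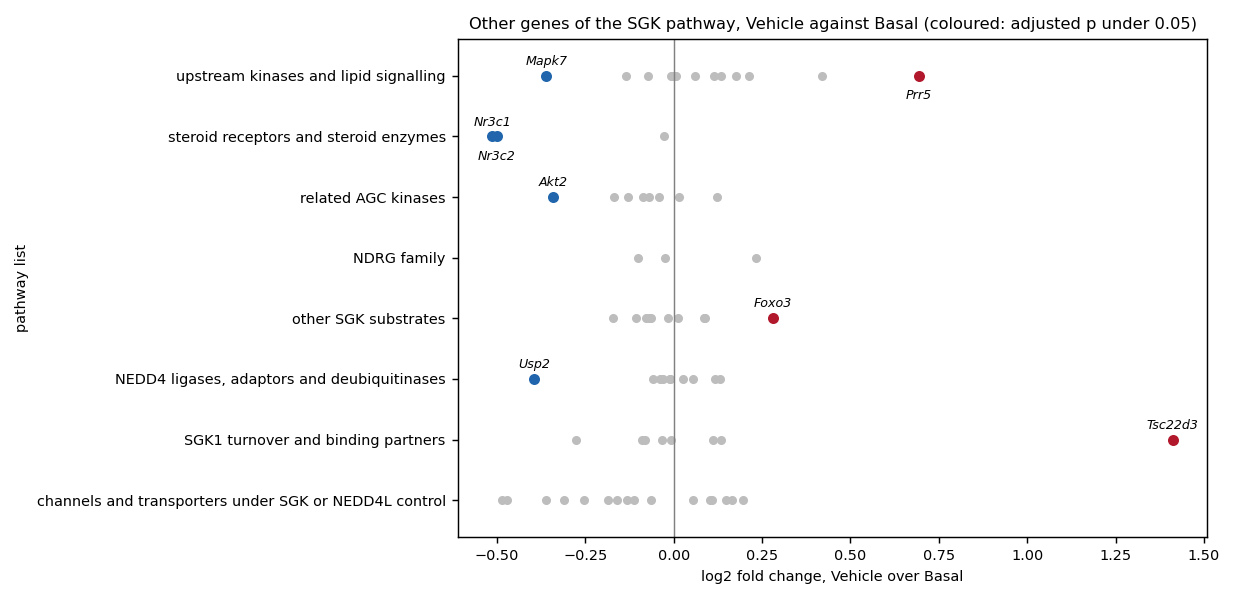
Log2 fold change of each of the 72 tested pathway genes in Vehicle against Basal, by list, with genes that passed at an adjusted p under 0.05 coloured and named. The 3 higher genes are Tsc22d3 (1.41), Prr5 (0.69) and Foxo3 (0.28), and the 5 lower ones lie between -0.51 (Nr3c1) and -0.34 (Akt2).

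In the ligand groups against Basal, 4 pathway genes were higher and 2 lower in Cort, 3 and 1 in RU486, 3 and 2 in C108, and 3 and 1 in C118. These are 8.33%, 5.56%, 6.94% and 5.56% of the 72, beside 6.27%, 5.45%, 6.04% and 3.87% of all genes, so that the share in RU486 and C108 was close to that of all genes. Tsc22d3 and Foxo3 were higher and Nr3c1 lower in all 4, as in Vehicle, against the shared Basal libraries. Against Vehicle, 0 of the 72 passed with edgeR in any ligand group, while 14 in Cort, 7 in RU486, 17 in C108 and 7 in C118 had an unadjusted p under 0.05. These are 19.4%, 9.72%, 23.6% and 9.72% of the 72, beside 11.6%, 8.16%, 17.4% and 8.01% of all genes. DESeq2 called 1 gene in C108 and 0 in the others, and edgeR without Vehicle 23 called 1 in RU486, 3 in C108 and 1 in C118.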

How the data were processed

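Dorsal hippocampus RNA of 28 libraries was enriched for mRNA and sequenced as stranded paired-end libraries on the DNBseq platform, per the labels' protocols. The authors deposited raw counts per gene for each library; FastQC, MultiQC, HTSeq 0.6.1 and the mm10 build are named per the submitters' processing notes, and no source used here gives the aligner, annotation release or strand setting. The 5 HTSeq summary rows, 12.6 to 19.7% of counts, were left out of library sizes and tests.

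Libraries were grouped by their titles. Genes were filtered with filterByExpr (minimum count 10, minimum total 15), leaving 16735 of 50686 genes, which held at least 99.9% of each library's counts. A single edgeR 4.0.16 quasi-likelihood model (R 4.3.3, robust, 22 residual degrees of freedom, TMM scaling) over the 6 groups gave 15 comparisons, tested on both sides, with Benjamini-Hochberg adjustment and a threshold of 0.05. The SE came from the log2 fold change and its F statistic, as their size over root F. Log2 CPM used a prior count of 2. Replicates differed beyond counting noise in every group (chi-square per degree of freedom at least 5.94). The procedure was run on simulated counts with the same spread for every gene and no outlying libraries. That run therefore does not show how it handles genes such as Sgk1 in Basal, where 1 library stood apart. The alternatives were RLE size factors, no filter, DESeq2 1.42.0, limma-voom 3.58.1, the 2 groups alone, marker scores as covariates, and libraries left out.

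Members and gene lists were chosen with earlier results of these data known. Named were the members, up to 4 passing genes per list with the smallest p, 9 genes fixed by name, and the 5 genes of at least 1 CPM most correlated with each member.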

Additional observations from a re-analysis of the deposited data

Results flagged for a closer look

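In 3 of the 30 combinations of a member with a group, the highest library stood apart from the others of its group by Dixon's test at the 95% level, where chance gives about 1 in 20. Sgk1 in Basal 9 was 130 CPM, with the next Basal library at 58.3 CPM and a gap of 0.892 of the range of the group. Basal 9 also had the highest score of the glucocorticoid-responsive genes in Basal (-0.63). Sgk2 in Basal 1 was 3.53 CPM, with the next library at 2.56 CPM (0.964 of the range), and Basal 1 had the highest oligodendrocyte score of all (0.54). Nedd4l in Cort 36 was 356 CPM, with the next Cort library at 279 CPM (0.805 of the range). Cort 36 had the lowest endothelial score of Cort (-0.69). The part of these markers in the 3 values was not tested.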

How the results depend on the processing

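No paired analysis was run because the labels name no pairs or blocks. Each library number is used once, so the numbers cannot show whether there were any. Cort 36, C118 38 and C108 39 carry the highest numbers, above those of every Basal and Vehicle library. What the numbers stand for is not given. Of 824 values of member results recomputed under an alternative, 755 kept their direction and side of the threshold, 40 no longer passed, 10 newly passed and 19 changed sign, and 0 of those that changed sign passed. Sgk1 in Vehicle against Basal did not pass with the 2 groups alone (1.11, adjusted p = 0.156). Of the sign changes, the oligodendrocyte covariate gave, against Vehicle, 0.0847 for Sgk1, 0.0180 for Sgk2, 0.0802 for Sgk3 and 0.0160 for Ndrg1 in Cort and 0.11 for Sgk2 in C108, and, against Basal, 0.35 in Cort, 0.0637 in RU486, 0.15 in C108 and 0.0791 in C118 for Ndrg1, 0.0083 for Hsd11b1 and -0.0251 for Pdpk1 in Vehicle. Limma-voom gave -2.64e-05 for Pdpk1 in Vehicle against Basal. The thalamus and neocortex covariates gave, against Vehicle, 0.0078 for Sgk2 in C108 and 0.0443 in RU486 and 0.0146 in C118 for Ndrg1, and, against Basal, 0.0914 in RU486 and 0.0617 in C118 for Ndrg1. Without Vehicle 16 and 29 together, Ndrg1 in Vehicle against Basal was -0.0090, Nedd4l in RU486 against Vehicle -0.0447 and Hsd11b1 in Vehicle against Basal 0.0394. Leaving out single libraries gave -0.16 to 0.0575 for Sgk1 in Cort and -0.15 to 0.0564 in C118 against Vehicle, -0.24 to 0.0002 for Sgk2 in RU486 against Basal, and -0.12 to 0.0444 for Hsd11b1 and -0.0420 to 0.0494 for Pdpk1 in Vehicle against Basal. The cause of these shifts was not tested. Pathway genes passing in Vehicle against Basal numbered 8, against 4 with no filter on low counts, 2 with the 2 groups alone and 2 without Vehicle 16 and 29. Sgk2 in Cort against Basal passed without Cort 36, C108 39 and C118 38 (-0.68, adjusted p = 0.0473). At 28 to 69 counts per library, depth limits Sgk2 most.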

Other observations

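Members were also compared with each other over the 28 libraries, as a description. Sgk1 and Sgk3 correlated at 0.66, and at 0.37 after each group was centred on its mean. Sgk3 and Ndrg1 correlated at 0.52 over all libraries and at 0.76 within groups.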
